A study of Mus musculus with 24 samples.

Results

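The bone marrow of wild-type (WT) mice that had flown in space was compared with that of WT mice kept on the ground, across all genes measured by RNA-seq. The comparison holds 12 of the 24 libraries of the series, chosen by their labels alone: 6 spaceflight WT mice (FL-WT) and 6 ground control WT mice (GC-WT), with a library per mouse. All were male mice on a C57BL/6 background. The flight animals were 8 weeks old when sent to the launch site, and the study states no age for the ground mice. The FL-WT mice spent 31 days in space before their marrow was taken after landing. The other 12 libraries come from mice without Nrf2, the transcription factor that switches on antioxidant and detoxifying genes, 6 flown (FL-KO) and 6 kept on the ground (GC-KO). They are used below where the WT difference is set against the Nrf2-KO difference and to estimate the spread between mice. Marrow cells of the pelvis and tibia were frozen in CELLBANKER2 before RNA was isolated, so each library is an average over all cell types left in the suspension. The flight mice were handled after landing in the United States and the ground mice in Japan, so spaceflight and the place and day of sampling cannot be told apart.

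Marrow makes the cells of the blood. Erythroblasts build up haemoglobin and a spectrin-based membrane skeleton, expel their nucleus and leave as reticulocytes. Granulocytes fill their granules in steps, first with myeloperoxidase and elastase and later with lactoferrin, cathelicidin and gelatinase. B cell precursors recombine their immunoglobulin genes with the help of the RAG proteins and test the product in the pre-B receptor. An RNA-seq value in TPM is a share of the whole library, so fewer cells of a type and less RNA per cell cannot be told apart, and a gene can also move because abundant RNAs elsewhere in the library moved.

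The table lists 54752 genes, and the 12373 that exceeded 1 TPM in any of the libraries entered the test. The defining markers of marrow were present in both groups: the medians of S100a8 (neutrophils) were 14885 and 21741 TPM in ground and flown mice, those of Hbb-bs (erythroid cells) 59706 and 58714, and those of Cd79a (B cells) 74.8 and 43.4. Most markers of other tissues that the dissection could hold were near 0. The highest values in any WT library were 1.96 TPM of Adipoq (fat), 0.49 of Ckm and of Acta1 (muscle), 0.56 of Bglap (bone) and 0.10 of Col2a1 (cartilage). Plin1 reached 0.04 and Acan was listed at 0 in every WT library. Col1a1 of bone matrix was higher, with 1.32 to 7.10 TPM in GC-WT and 0.64 to 1.47 in FL-WT mice. Of the endothelial markers, Pecam1 ran from 6.49 to 8.92 TPM in GC-WT and from 3.66 to 8.05 in FL-WT mice, and Cdh5 reached 1.16. The table holds no read counts, so the depth of each library is unknown. The 5 small structural RNAs Rn7s1, Rn7s2, Rn7sk, Rpph1 and Rmrp held 41.0 to 58.2% of the TPM of GC-WT and 40.1 to 59.6% of that of FL-WT libraries. The number of genes above 1 TPM ran from 10325 to 11413 in GC-WT mice and from 9347 to 10858 in FL-WT mice.

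The FL-WT libraries were shifted downward as a whole. Across tested genes the log2 fold change had a median of -0.24, a 10th percentile of -0.56 and a 90th percentile of 0.04, and 86.4% of the values were negative. The shift was uneven between mice: against the GC-WT mean, the median gene stood at -0.59 on the log2 scale in FL-WT 05 and at -0.46 in FL-WT 06, but at 0.13 in FL-WT 07, and the GC-WT mice ran from -0.19 to 0.13. Changes are therefore given below both as deposited and relative to this median, where the relative value is the log2 fold change plus 0.24. This reference depends on the genes that set it: without the filter on low values the median of all genes was -0.0455. Relative medians of several lists near 0 then turned sign. Among them, T and NK cell genes went from 0.16 to -0.04, glycolytic enzymes from 0.16 to -0.07 and glucocorticoid-responsive genes from 0.07 to -0.13. NF-kB and cytokine genes went from 0.10 to -0.05, haem breakdown from 0.07 to -0.06 and kappa variable genes from 0.14 to -0.02. Nrf2 target genes went from 0.16 to -0.001.

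A gene was called where its adjusted p was under 0.1 and the groups differed at least 2-fold. By this rule 116 genes were lower in FL-WT mice (0.938% of those tested) and 8 were higher (0.0647%). After median-of-ratios scaling between libraries, which removes the common shift, the split turned: 15 genes were called lower (0.121%) and 22 higher (0.178%). All 15 were among the 116, and the 22 included all 8. Of the 116, 113 still had an adjusted p under 0.1 in the same direction after that scaling, and 33 of the 116 were at least 2-fold below the median gene. Between the groups, 86 of the 116 had no overlap, set against 519 tested genes (4.19%) that were lower with no overlap and 12 (0.097%) that were higher with none. After median-of-ratios scaling 2.48% of the tested genes were lower and 3.23% higher with no overlap. The 116 calls contain 3 sets of genes with identical values in all 24 libraries, so they stand for 112 distinct measurements. The count of lower calls was 77 without FL-WT 05 and 193 without FL-WT 07, the flown mice with the lowest and the highest median gene, and that of higher calls stayed between 8 and 10 when any WT library was left out.

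**Figure D1:**
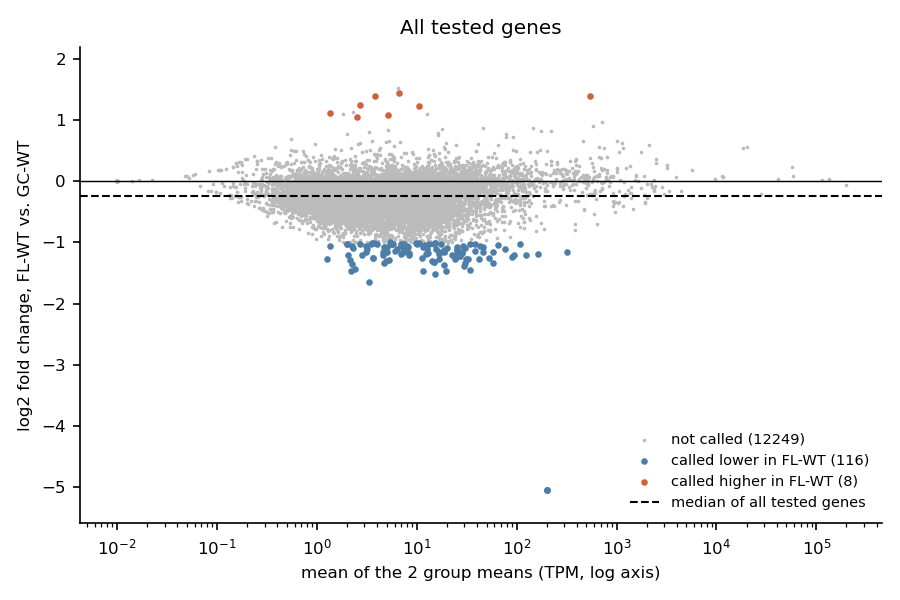
Each point is a tested gene, with its mean level in the WT mice on a logarithmic TPM axis and the log2 fold change of FL-WT vs. GC-WT on the other axis. The dashed line, the median of all tested genes, lies at -0.24, below the solid line at 0; 116 genes called lower are blue and 8 called higher are red, and the lowest blue point is 3 copies of the U2 RNA gene with identical values.

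The red cell membrane skeleton held more of the lower calls than any other list. Of its 23 tested members, 15 fell and none rose, 16 were lower with no overlap between the groups, and its median relative log2 fold change was -0.91, against 0 for all genes by definition. After median-of-ratios scaling 2 members (Sptb and Ank1) were called and 8 were lower with no overlap. The members that fell included the erythroid beta spectrin, the linker that ties spectrin to the membrane, the anion exchanger and several blood group proteins. The summed TPM of the list took 0.105 to 0.211% of the GC-WT and 0.0526 to 0.0946% of the FL-WT libraries, with no overlap between the groups.

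Sptb (chr12:76580488-76710547, minus strand), which encodes the erythroid beta spectrin, lay between 31.6 and 71.3 TPM in GC-WT mice with a median of 50.6. In FL-WT mice it lay between 11.9 and 26.1 with a median of 16.6. Every flown mouse was below every ground mouse, and the log2 fold change was -1.45 ± 0.22 (SE, adjusted p = 6.43e-05), or -1.20 relative to the median gene. Ank1 (chr8:22974844-23150497), the ankyrin that ties spectrin to the membrane, ran from 28.7 to 59.3 TPM in GC-WT and from 11.6 to 23.1 in FL-WT mice, and fell by 1.39 ± 0.20 (adjusted p = 5.98e-05). Slc4a1 (chr11:102348824-102366203), the anion exchanger band 3 to which ankyrin binds, was the most abundant of the 15, at 293 to 596 TPM in GC-WT and 138 to 252 in FL-WT mice. It fell by 1.15 ± 0.20 with no overlap in TPM, although its groups overlapped after median-of-ratios scaling. Kel, the Kell blood group protein, fell by 1.28 ± 0.18, and Dmtn (dematin), Ermap, Epb42 (protein 4.2), Tmod1 (a tropomodulin that caps short actin filaments), Add2 (beta adducin), Gypc (glycophorin C), Rhd, Rhag, Trim58 and Tmcc2 fell too, with relative values of -0.82 to -1.03. The 8 members that were not called included Mpp1, at -0.16 relative to the median gene. Tmod3, another tropomodulin, stood at 0.07.

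**Figure D2:**
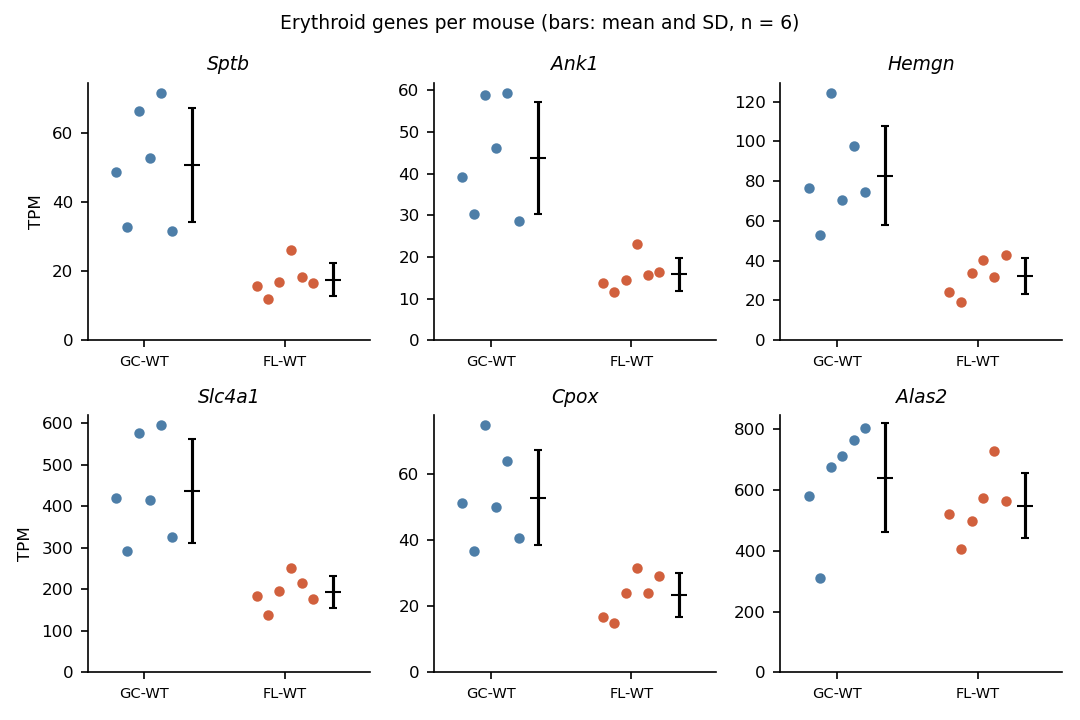
TPM of 6 erythroid genes in each WT mouse, from 0, with GC-WT mice in blue, FL-WT mice in red and bars for the mean and SD of 6 mice. In the panels of Sptb, Ank1, Hemgn, Slc4a1 and Cpox every FL-WT point lies below every GC-WT point, while the groups overlap for Alas2.

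Regulators of the erythroid programme were lower as a group. Of 19 tested erythroid transcription factors and cofactors, 3 fell, none rose, and each of the 19 stood below the median gene, with a median of -0.59. After median-of-ratios scaling 0 of the 19 were called. Hemgn (hemogen, chr4:46393989-46413506), a nuclear protein of blood cell precursors, ran from 53 to 124 TPM in GC-WT and from 19.1 to 42.7 in FL-WT mice and fell by 1.34 ± 0.20 (adjusted p = 6.21e-05). Zfpm1, which encodes FOG1, the cofactor of GATA1, had medians of 36.4 and 15 TPM and fell by 1.18 ± 0.21, with an overlap of the groups at 24 to 25.5 TPM. Sox6 fell by 1.18 ± 0.18 with no overlap. The factors that define the lineage were lower by less than 2-fold: Gata1 changed by -0.83 ± 0.17 (adjusted p = 0.00124), Klf1 by -0.89 ± 0.19 (adjusted p = 0.00155) and Tal1 by -0.95 ± 0.18 (adjusted p = 0.00059), the last with no overlap. Epor, the erythropoietin receptor and the 1 gene called among 12 tested genes of its signalling list, ran from 15.7 to 26.2 TPM in GC-WT and from 6.52 to 12.7 in FL-WT mice and fell by 1.03 ± 0.17, while that list's median was -0.14. No gene of that list was called after median-of-ratios scaling.

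The promoters of 3 of these genes are shown as the stretch of 250 bases upstream of the RefSeq start site (GRCm38.p6), beside that of Alas2, an erythroid gene that did not pass the test (below). Capitals mark GATA motifs (AGATAA or TGATAA or AGATAG or TGATAG, on either strand) in Hemgn (chr4:46404184-46404433, minus strand), Kel (chr6:41704326-41704575, minus strand) and Alas2 (chrX:150547167-150547416, plus strand), and matches to CCNCNCCC on either strand, the motif of KLF factors, 2 of which overlap, in Sptb (chr12:76710548-76710797, minus strand).
Sptb: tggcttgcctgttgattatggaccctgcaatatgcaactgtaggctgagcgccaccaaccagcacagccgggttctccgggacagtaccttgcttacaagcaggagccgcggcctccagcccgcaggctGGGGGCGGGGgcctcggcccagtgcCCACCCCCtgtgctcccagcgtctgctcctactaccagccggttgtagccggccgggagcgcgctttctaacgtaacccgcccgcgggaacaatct
Hemgn: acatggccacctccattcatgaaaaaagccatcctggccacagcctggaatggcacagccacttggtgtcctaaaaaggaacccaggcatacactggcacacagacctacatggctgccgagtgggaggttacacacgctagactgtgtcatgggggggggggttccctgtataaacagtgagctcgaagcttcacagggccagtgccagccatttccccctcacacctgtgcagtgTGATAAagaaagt
Kel: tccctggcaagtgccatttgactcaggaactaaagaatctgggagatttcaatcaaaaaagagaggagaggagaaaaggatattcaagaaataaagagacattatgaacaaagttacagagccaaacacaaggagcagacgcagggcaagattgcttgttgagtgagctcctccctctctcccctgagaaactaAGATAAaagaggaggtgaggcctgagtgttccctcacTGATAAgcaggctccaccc
Alas2: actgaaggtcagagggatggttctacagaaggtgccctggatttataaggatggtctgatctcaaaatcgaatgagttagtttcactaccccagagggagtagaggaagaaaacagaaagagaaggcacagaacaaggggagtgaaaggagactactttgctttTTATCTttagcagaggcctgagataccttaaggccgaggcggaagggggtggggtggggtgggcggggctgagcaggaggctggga
A GATA motif stood in 11 of 20 such windows of the tested membrane skeleton genes (55.0%, 16 of 23 genes matched), in 32 of 99 windows of the genes called lower (32.3%, 67 of 116 genes matched), in 17.8% of the windows of all tested genes and in 26.5% of all 32851 windows of the table. The KLF motif stood in 55.0%, 52.5%, 61.8% and 45.9% of the same sets. Other erythroid lists held fewer GATA windows than the membrane skeleton. A GATA motif stood in 2 of 25 windows for iron uptake and transport, 3 of 10 for haem enzymes and 7 of 25 for transcription factors. It also stood in 3 of 5 windows of the genes called higher and in 3 of 4 of the stefin A cluster (below). GATA windows were thus not limited to genes that fell. The window of Sptb held 3 KLF matches and no GATA match, and Alas2 held 1 GATA and 4 KLF matches.

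Haem synthesis was lower at most of its steps, while the first showed no clear change. The 8 tested enzymes had a median of -0.73 relative to the median gene, 3 fell and 5 were lower with no overlap. After median-of-ratios scaling 0 were called and 0 were without overlap, while 6 kept a lower value with an adjusted p under 0.1. Cpox, the coproporphyrinogen oxidase (chr16:58670292-58717636), fell by 1.14 ± 0.20, from a median of 50.7 TPM (36.6 to 74.8) to 24.1 (14.9 to 31.7). Alad, which makes porphobilinogen, fell by 1.02 ± 0.19, and Uros, Ppox and Urod were at -0.74, -0.73 and -0.58 relative to the median gene. Alas2 (chrX:150547375-150570638), the erythroid enzyme of the first and rate-limiting step, lay between 309 and 803 TPM in GC-WT and between 406 and 729 in FL-WT mice, with a log2 fold change of -0.18 ± 0.18 (adjusted p = 0.45) and a relative value of 0.06. The ubiquitous Alas1 stood at 0.10. For Alas2 the lowest ground value, 309 TPM, was that of GC-WT 05, and the other GC-WT mice ran from 579 to 803. In Nrf2-KO mice Alas2 ran from 658 to 964 TPM on the ground and from 446 to 745 after flight.

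Of 18 tested genes of iron uptake and mitochondrial transport, 4 fell and the median was -0.57, and 0 were called after median-of-ratios scaling. Slc6a9, the glycine transporter that feeds the first step of haem synthesis, ran from 15 to 30.7 TPM in GC-WT and from 5.61 to 10.1 in FL-WT mice and fell by 1.31 ± 0.18 (adjusted p = 4.46e-05). Slc25a37 (mitoferrin 1), which brings iron into mitochondria, fell by 1.20 ± 0.19 and its partner Abcb10 by 1.11 ± 0.16, both with no overlap. Tfrc, the transferrin receptor, had medians of 90.1 and 41.8 TPM with overlapping ranges and fell by 1.04 ± 0.21. Tmem14c, Tfr2 and Slc25a39 stood at -0.24, -0.16 and -0.09, and Ireb2 (iron regulatory protein 2), which binds iron-responsive elements in the mRNA of Tfrc and Alas2, at 0.23.

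Of 21 tested surface transporters, antigens and enzymes of red cells, 8 fell, with a list median of -0.54. None of the 8 was called after median-of-ratios scaling, and the members lower with no overlap went from 7 to 4. Aqp1, the water channel, ran from 104 to 174 TPM in GC-WT and from 38.0 to 73.0 in FL-WT mice and fell by 1.20 ± 0.19. The amino acid transporters Slc43a1 and Slc7a5 fell by 1.22 ± 0.17 and 1.16 ± 0.23, and Btnl10, a butyrophilin-like gene, by 1.36 ± 0.17. Slc2a4, Slc14a1 (a urea transporter), Slc38a5 (an amino acid transporter) and Tspan33 (a tetraspanin) were the other members that fell. Genes of the late red cell cytoplasm were closer to the median gene: Car1 (carbonic anhydrase 1) stood at -0.11 and Bpgm, which makes 2,3-bisphosphoglycerate, at 0.08.

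Among 16 tested genes of reticulocyte maturation the median was -0.38, and only the nuclear export receptor Xpo7 fell, by 1.25 ± 0.18, from a median of 73.6 to 30.2 TPM with no overlap. None of the 16 was called after median-of-ratios scaling. Bnip3l, needed for the removal of mitochondria, stood at 0.11 relative to the median gene, Map1lc3b at 0.09 and Gabarapl2 at 0.17. Alox15, a lipoxygenase that acts on organelle membranes in reticulocytes and is also made by eosinophils, had medians of 15.4 TPM in GC-WT and 21.8 in FL-WT mice, a relative value of 0.78 and an adjusted p of 0.0525, below the fold threshold. The 4 globin genes tested stood at 0.28 to 0.47 relative to the median gene, and none passed the test as deposited. Hbb-bs lay between 27605 and 73509.8 TPM in GC-WT and between 50155 and 77004.5 in FL-WT mice (log2 fold change 0.23 ± 0.18, adjusted p = 0.308). After median-of-ratios scaling, all 4 had a positive fold change and an adjusted p under 0.1, although no member was called. Their median of 0.33 was 0.04 with quantile normalization, 0.13 with no filter and 0.17 with the GC and length trend removed, and it ran from 0.16 to 0.42 when 1 library was left out. Hba-a1 and Hba-a2 are near-identical copies, so their split is uncertain. GC-WT 05 stood apart in this list, at -0.84 on the log2 scale against -0.01 to 0.48 in the other GC-WT mice, and was also the lowest ground mouse for the membrane skeleton.

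The transcript lengths of these lists differed, as did their medians. Lengths, taken from the longest annotated transcript, had a median of 4004 bases for the membrane skeleton, 2241 for haem enzymes and 663.5 for globins. All genes called lower had a median length of 3390 bases and those called higher 460.5, against 2982 for all tested genes. With each library's trend on GC content and length removed, the relative medians were -0.87 for the membrane skeleton, -0.73 for haem enzymes, -0.48 for the transcription factors and 0.17 for globins, and 110 of the 115 lower calls in that fit kept an adjusted p under 0.1 in the same direction. The part of length in these differences was not tested.

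**Figure D3:**
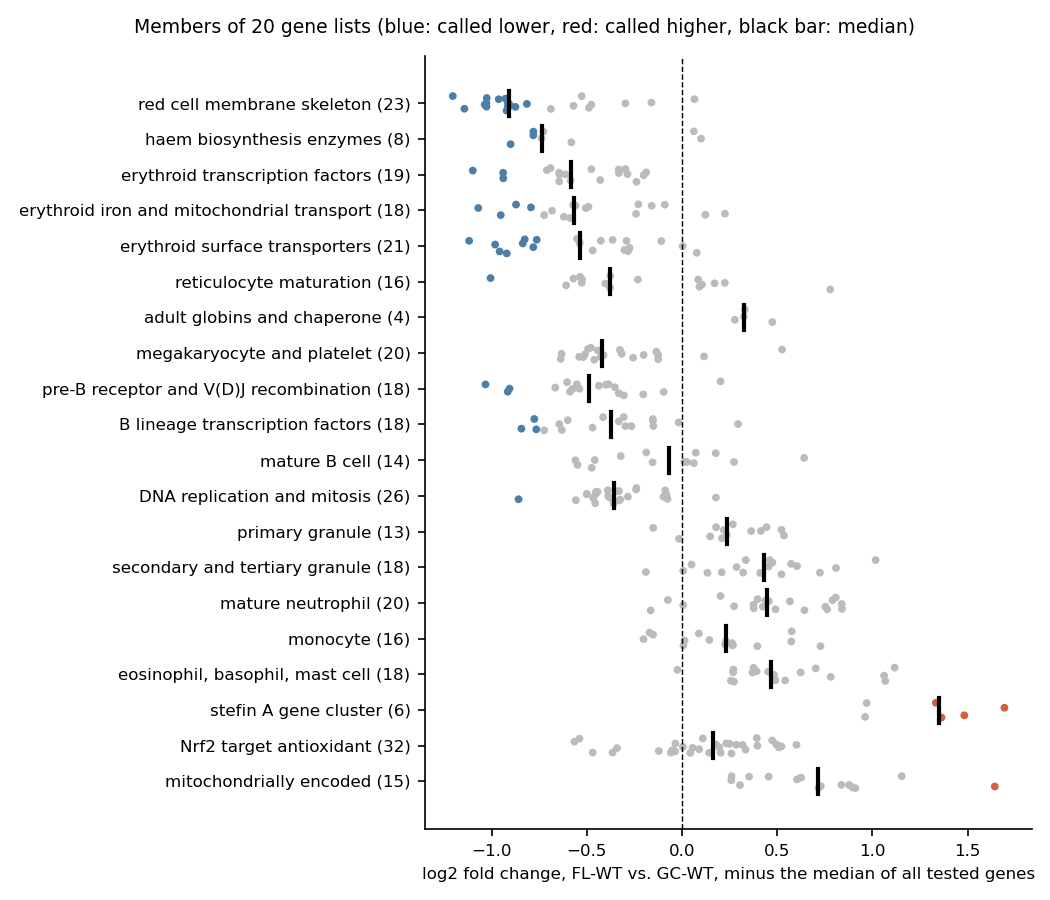
Log2 fold change of FL-WT vs. GC-WT minus the median of all tested genes, with a point per tested member of 20 gene lists, the number of members in brackets and a black bar at the list's median. Erythroid lists other than globins and the B cell precursor lists lie to the left of the dashed line at 0, and neutrophil, eosinophil, stefin A and mitochondrially encoded lists to its right.

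Megakaryocyte and platelet genes were lower by less than the fold threshold. Of 20 tested genes none was called, 18 stood below the median gene, and the median was -0.42. Vwf, the von Willebrand factor, changed by -0.88 ± 0.25 (adjusted p = 0.0121). Pf4, the platelet factor 4, had overlapping ranges of 26.7 to 62.1 TPM in GC-WT and 10.7 to 33.4 in FL-WT mice. This list varied more between mice than the erythroid ones, and leaving out 1 library moved its median between -0.58 and -0.26. Genes of stem and progenitor cells were at the level of the median gene: 13 were tested, none was called, and the median was -0.02.

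B cell precursor genes were lower as well. Of 18 tested genes of the pre-B receptor and V(D)J recombination, 3 fell, 6 were lower with no overlap, 17 stood below the median gene, and the median was -0.49. After median-of-ratios scaling 0 were called and 4 were lower with no overlap. Rag1 (chr2:101638282-101649501), the recombinase that cuts immunoglobulin genes, lay between 5.27 and 9.84 TPM in GC-WT mice and between 1.03 and 4.35 in FL-WT mice. All flown mice were below all ground mice, and it fell by 1.16 ± 0.19 (adjusted p = 0.000146). Vpreb3, which binds immunoglobulin chains in pre-B cells, went from a median of 56.0 TPM (45.7 to 72.5) to 20.6 (13.9 to 40.5) and fell by 1.28 ± 0.21. The scaffold gene Akap12 fell by 1.15 ± 0.17. The pre-B receptor gene Vpreb1 changed by -0.91 ± 0.19 (adjusted p = 0.00156), Rag2, Sox4 and the interleukin 7 receptor Il7r were lower with no overlap at -0.59, -0.57 and -0.54 relative to the median gene, and Vpreb2 stood at 0.20.

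Among 18 tested transcription factors of the B lineage, 3 fell and the median was -0.37, and 0 were called after median-of-ratios scaling. Pou2af1 fell by 1.01 ± 0.18, Spib by 1.09 ± 0.22 and Bach2, a repressor that also binds the DNA sites of Nrf2, by 1.02 ± 0.21, and the groups overlapped for each. Irf4 was lower with no overlap at 5.18 to 7.87 TPM against 1.48 to 5.02, with a log2 fold change of -0.97 ± 0.18 (adjusted p = 0.000432). Genes of mature B cells and plasma cells were nearer to the median gene, at -0.07 over 14 and -0.13 over 12 tested genes, with no call in either list. Of 93 tested heavy chain variable genes 7 were called lower and of 90 kappa variable genes 1, with medians of -0.11 and 0.14. Of all tested genes 0.938% were called lower. Only 1 of the 93 and 0 of the 90 were lower with no overlap, against 4.19% of all tested genes. After median-of-ratios scaling 2 of the 93 and 1 of the 90 were called lower. These genes belong to families of close copies, and 2 of the 7 had identical values. Across T and NK cell genes the median was 0.16, and none of the 25 tested was called.

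Genes of DNA replication and mitosis stood at -0.36 over 26 tested members, and 25 were below the median gene. Mki67, the proliferation marker Ki-67, was the member called, at 73.0 to 149 TPM in GC-WT and 31.4 to 66.2 in FL-WT mice, and fell by 1.10 ± 0.21 (adjusted p = 0.000706). Smarca4, the ATPase of the SWI/SNF chromatin remodellers, had medians of 21.5 and 8.69 TPM with overlapping ranges and fell by 1.0 ± 0.22, the only call among 14 tested subunits, whose median was -0.24. In the list of HRI and ATF4 stress genes, the phosphatase subunit Ppp1r15a fell by 1.06 ± 0.17 with no overlap, next to Slc7a5, and the list median was -0.23. After median-of-ratios scaling no gene of the replication, SWI/SNF or stress lists was called.

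Large decreases outside these lists included 5430401H09Rik, a long non-coding RNA on chr12:32096613-32123702, which ran from 12.5 to 27.0 TPM in GC-WT and from 4.12 to 9.70 in FL-WT mice and fell by 1.47 ± 0.20. Apol11b, of the apolipoprotein L family, fell by 1.33 ± 0.23, Ypel4 by 1.31 ± 0.17, Fn3k, which removes sugar from glycated proteins, by 1.3 ± 0.16, and the sorting nexin Snx22 by 1.29 ± 0.16, all with no overlap. Apol11b rested partly on 1 ground mouse at 99.7 TPM, and it has a near-identical neighbour, Apol11a. The U2 RNA gene Rnu2-10 and the copies Gm24950 and Gm23849, which share all values, were listed at 0 in FL-WT 05, 07, 08 and 10 but at 357 and 502 TPM in FL-WT 03 and 06, against 168 to 378 in GC-WT mice. U2 RNA is part of the spliceosome of every cell, so a value of 0 can be a failed estimate among its copies, and no fold change is given.

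Of the 8 genes called higher, 4 belong to the stefin A cluster on chromosome 16, a family of small inhibitors of cysteine proteases that is expanded in the mouse. The 6 tested members lie between chr16:36156811 and chr16:36455392, and each was higher with an adjusted p under 0.1. Stfa1 ran from 3.98 to 8.23 TPM in GC-WT and from 10.8 to 19.4 in FL-WT mice and rose by 1.24 ± 0.18 (adjusted p = 5.96e-05). Stfa3 had medians of 3.12 and 6.97 TPM and rose by 1.09 ± 0.16, and Stfa2, at 0 to 0.98 and 1.51 to 3.74 TPM, by 1.12 ± 0.17. BC100530 had the largest change, 1.45 ± 0.20, from a median of 3.14 TPM (1.66 to 4.09) to 9.40 (6.95 to 16.5). All 4 had no overlap between the groups. The more abundant Stfa2l1 and Gm5483, at medians of 62.6 and 70.7 TPM in GC-WT and 97.4 and 109.9 in FL-WT mice, changed by 0.72 ± 0.21 and 0.73 ± 0.20, below the fold threshold. They passed it after median-of-ratios scaling, where all 6 members were called and none overlapped. The members are similar enough to share reads, so the split between them is uncertain. Summed, the cluster took 0.00956 to 0.0183% of the TPM of GC-WT and 0.0175 to 0.0335% of that of FL-WT mice.

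Windows upstream of Stfa1 (chr16:36276898-36277147, plus strand) and Stfa3 (chr16:36455393-36455642, minus strand) are shown because both genes rose together. Capitals mark GATA motifs, of which each window holds 2.
Stfa1: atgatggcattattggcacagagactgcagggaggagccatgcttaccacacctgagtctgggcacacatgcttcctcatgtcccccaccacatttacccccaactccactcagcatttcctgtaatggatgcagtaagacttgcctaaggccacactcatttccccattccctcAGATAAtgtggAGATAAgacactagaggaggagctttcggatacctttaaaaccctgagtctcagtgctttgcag
Stfa3: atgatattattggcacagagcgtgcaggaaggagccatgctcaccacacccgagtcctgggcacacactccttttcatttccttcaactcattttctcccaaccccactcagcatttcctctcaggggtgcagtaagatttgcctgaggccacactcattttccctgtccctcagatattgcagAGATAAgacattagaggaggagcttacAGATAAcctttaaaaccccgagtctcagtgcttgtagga

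The other 4 genes called higher were Acot1, an acyl-CoA thioesterase with close copies beside it, mt-Atp8, Tmsb15b2 and the small nucleolar RNA gene Gm23946. Acot1 lay between 0.94 and 1.18 TPM in GC-WT mice and between 2.25 and 8.26 in FL-WT mice and rose by 1.25 ± 0.20 with no overlap. The groups of the other three overlapped. mt-Atp8 ran from 44.9 to 1094 TPM in GC-WT and from 359 to 1989 in FL-WT mice, with an SE of 0.48 on a change of 1.40, and it overlaps mt-Atp6 in the mitochondrial genome. The 15 mitochondrially encoded genes were all above the median gene, with a list median of 0.72, and mt-Atp6 was higher with no overlap, at 293 to 527 and 593 to 830 TPM (0.91 ± 0.14, adjusted p = 6.68e-05). As a share of the library they took 0.653 to 1.36% in GC-WT and 0.860 to 1.83% in FL-WT mice, with overlapping ranges. With the GC and length trend removed the list median was 0.41.

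Eosinophil, basophil and mast cell genes stood at 0.47 over 18 tested members, 17 of them above the median gene, and 4 were higher with no overlap. None was called as deposited, and 3 were called after median-of-ratios scaling. These 3 were the eosinophil-associated ribonuclease genes Ear1, Ear2 and Ear6, close copies on chromosome 14. Ear2 lay between 96.5 and 168 TPM in GC-WT and between 181 and 331 in FL-WT mice, and Ear6 between 85.6 and 139 and between 162 and 258. Every flown mouse was above every ground mouse for both, and the changes were 0.83 ± 0.19 (adjusted p = 0.003) and 0.87 ± 0.24 (adjusted p = 0.01). Prg2, the eosinophil major basic protein, was the fourth gene with no overlap, at 507 to 794 and 835 to 1076 TPM (0.54 ± 0.21, adjusted p = 0.0579), and Epx, the eosinophil peroxidase, changed by 0.46 ± 0.19 (adjusted p = 0.0735). The basophil protease Mcpt8 and the mast cell protease gene Cpa3 stood at 0.26 and 0.37 relative to the median gene.

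Neutrophil genes stood above the median gene. The medians were 0.23 over 13 tested primary granule genes, 0.43 over 18 of the secondary and tertiary granules and 0.45 over 20 of mature neutrophils, and 0.04, 0.24 and 0.25 without the filter on low values. No member was called as deposited. With an adjusted p under 0.1 at any fold, 0, 4 and 7 members were higher and 0, 0 and 1 lower in the 3 lists, against 0.994% and 39% of all tested genes in these directions. After median-of-ratios scaling 10, 15 and 16 were higher and none lower, against 20.6% of all tested genes higher and 13.6% lower. S100a8 and S100a9, the subunits of calprotectin, took 2.26 to 4.63% of the TPM in GC-WT and 3.71 to 5.12% in FL-WT mice, with overlapping ranges. Retnlg, a resistin-like gene of mature neutrophils, went from a median of 1599 TPM (1356 to 2103) to 2747 (1689 to 2961), with 0.60 ± 0.13 (adjusted p = 0.00257). Wfdc21 changed by 0.57 ± 0.13 and the chitinase-like Chil3 by 0.48 ± 0.17, both with overlapping ranges. Camp, the cathelicidin, stood at 0.60 relative to the median gene, the lactoferrin gene Ltf at 0.05, Ms4a3 of granulocyte precursors at 0.54 and the myeloperoxidase gene Mpo at -0.15. Monocyte genes had a median of 0.23 over 16 tested members, with S100a4 at 0.73 and Ly6c2 at 0.40, and tissue macrophage genes one of -0.04 over 17. Genes of haem breakdown and iron storage, used by the macrophages that clear red cells, had a median of 0.07 over 10.

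**Figure D4:**
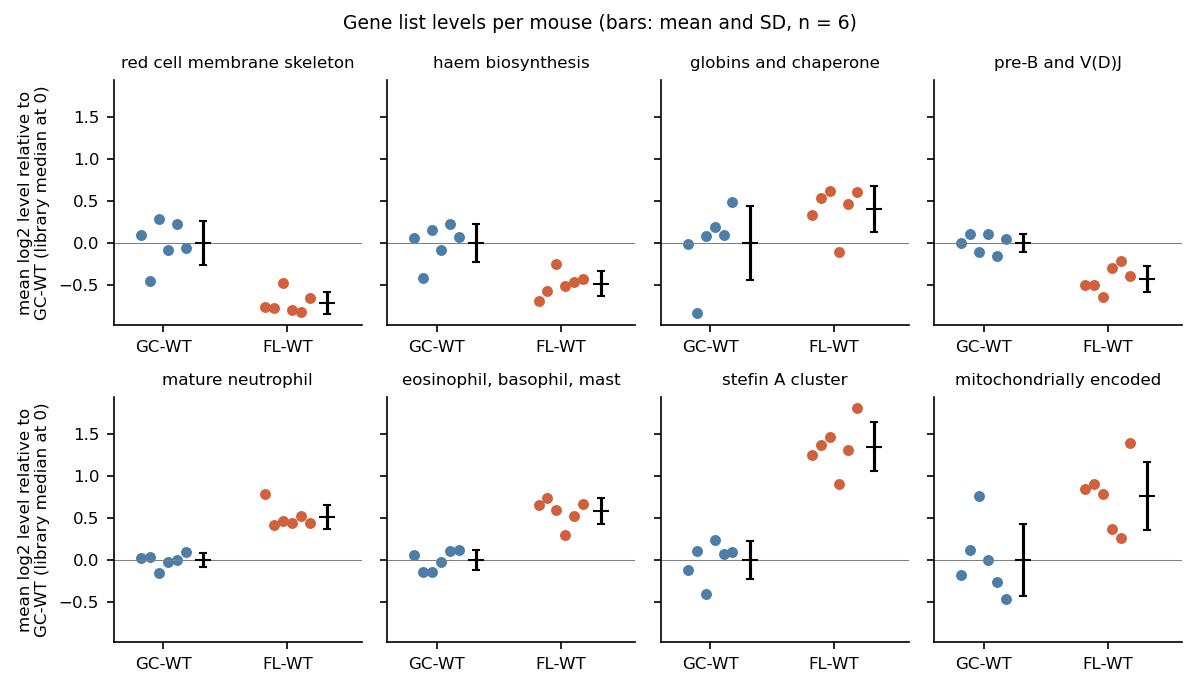
Mean log2 level of 8 gene lists in each WT mouse, with each library centred on its median tested gene and the GC-WT mean set to 0, and bars for the mean and SD of 6 mice. All FL-WT mice lie below all GC-WT mice for the membrane skeleton (at most -0.48 against at least -0.45) and the pre-B list, and all lie above them for mature neutrophil, eosinophil and stefin A genes, while haem, globin and mitochondrially encoded lists overlap.

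Single mice were compared after each library was centred on its median gene. The membrane skeleton stood at -0.83 to -0.48 in the FL-WT mice and at -0.45 to 0.28 in the GC-WT mice. The mature neutrophil list stood at 0.42 to 0.79 and -0.15 to 0.10, the eosinophil, basophil and mast cell list at 0.30 to 0.74 and -0.14 to 0.12, and the pre-B list at -0.65 to -0.21 and -0.15 to 0.11. Some lists nearer to the median gene also had no overlap in this measure. In FL-WT and GC-WT mice, NF-kB and cytokine genes stood at 0.08 to 0.37 and -0.11 to 0.07. T and NK cell genes stood at 0.19 to 0.27 and -0.15 to 0.14, and NADPH oxidase subunits at 0.07 to 0.42 and -0.16 to 0.04. Haem enzymes overlapped through GC-WT 05, at -0.42, and FL-WT 06, at -0.25. Ribosomal protein genes stood above the median gene too, at 0.30 for 50 large and 0.34 for 35 small subunit genes with no call. Nuclear genes of oxidative phosphorylation stood at 0.20. With quantile normalization the medians of the large subunit, small subunit and oxidative phosphorylation genes were 0.05, 0.08 and 0.13. Without the filter on low values they were 0.09, 0.14 and 0.004. Mature neutrophil genes had a median length of 1340 bases, and their relative median was 0.36 with the GC and length trend removed.

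The Nrf2 target list tells how the pathway that is absent in the other genotype stood in flown WT mice. Of 32 tested targets none was called, and the median was 0.16. That median was -0.001 without the filter on low values and 0.08 with quantile normalization. At any fold, 6 were lower and 1 higher with an adjusted p under 0.1, against 39% and 0.994% of all tested genes. After median-of-ratios scaling 3 were lower and 14 higher, against 13.6% and 20.6% of all tested genes, and the members with no overlap went from 2 lower to 5 higher. Gclc, the catalytic subunit of glutathione synthesis, was lower with no overlap, at 10.6 to 19.6 and 4.84 to 9.91 TPM (-0.81 ± 0.16, adjusted p = 0.00106). Gclm, its modifier subunit, changed by -0.61 ± 0.16, Nqo1, the quinone reductase, by -0.58 ± 0.13 with no overlap and Srxn1 by -0.36 ± 0.10, which are -0.37, -0.34 and -0.12 relative to the median gene. Slc7a11, the cystine transporter, was the target higher as deposited, at 0.87 to 1.27 and 1.18 to 2.27 TPM (0.36 ± 0.13, adjusted p = 0.0345). Prdx2 and Cat, antioxidant genes abundant in red cells, stood at -0.54 and -0.47 beside the erythroid genes. The Nrf2 motif TGACNNNGC, searched on both strands, stood in 9 of 37 windows upstream of these targets (24.3%) and in 12% of the windows of all tested genes.

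Other stress and signalling lists were close to the median gene and held no call. Their medians were -0.15 over 21 interferon-stimulated genes, -0.09 over 15 p53 targets, 0.07 over 13 glucocorticoid-responsive genes, 0.01 over 12 clock genes and 0.10 over 15 NF-kB and cytokine genes. Isg15 was lower with no overlap, at 36.5 to 57.4 and 26.6 to 34 TPM (-0.63 ± 0.13, adjusted p = 0.00117), and Arntl, a core clock gene, changed by -0.57 ± 0.13. Proteasome subunits stood at 0.22 over 26 genes and glycolytic enzymes at 0.16 over 16. Among bone matrix genes Col1a1 fell by 1.09 ± 0.32 (adjusted p = 0.014) at levels of at most 7.10 TPM, and the groups overlapped. No bone matrix gene was called after median-of-ratios scaling.

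The flight difference of WT mice was tested against that of Nrf2-KO mice in the same fit. Only 2 genes had a difference with an adjusted p under 0.1 (0.0162% of those tested), with 428 genes (3.46%) at an unadjusted p under 0.05. They were Gm26917, an abundant non-coding RNA gene (0.08 in WT and -1.39 in Nrf2-KO mice, adjusted p = 0.0475), and the histone gene Hist1h2ap (0.27 and -0.81, adjusted p = 0.0746). Neither was called in the WT comparison. With median-of-ratios scaling 31 genes differed, and as deposited leaving out 1 WT library gave between 0 and 7 such genes. Of the 116 genes called lower, 111 were also below the median gene in the Nrf2-KO comparison, where the median splits all tested genes evenly. That comparison shares no mice with the WT one, but flight and place of sampling cannot be told apart in it either. Both comparisons come from the same fit. The median relative change of the 116 was -0.91 in WT and -0.84 in Nrf2-KO mice. For the difference, 7 of the 116 had an unadjusted p under 0.05 (smallest adjusted p = 0.23). The membrane skeleton had medians of -0.91 and -0.87 and haem enzymes -0.73 and -0.74. Histone genes differed more between the genotypes: over 66 tested genes with names starting Hist the medians were 0.06 in WT and -0.33 in Nrf2-KO mice, and 31 of the 66 had an unadjusted p under 0.05 for the difference. The stefin A cluster stood at 1.35 and 0.96, with no member past the adjusted threshold for the difference. Ear6 changed by 0.87 in WT and -0.51 in Nrf2-KO mice and Ear2 by 0.83 and -0.29. Of the 18 eosinophil, basophil and mast cell genes 7 had an unadjusted p under 0.05 for the difference, but none passed after adjustment (Ear2, adjusted p = 0.277). A single flown Nrf2-KO mouse, FL-KO 09, stood far below the rest of its group, with 24 TPM of Ear6 against 82.4 to 116 in the other FL-KO mice.

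**Figure D5:**
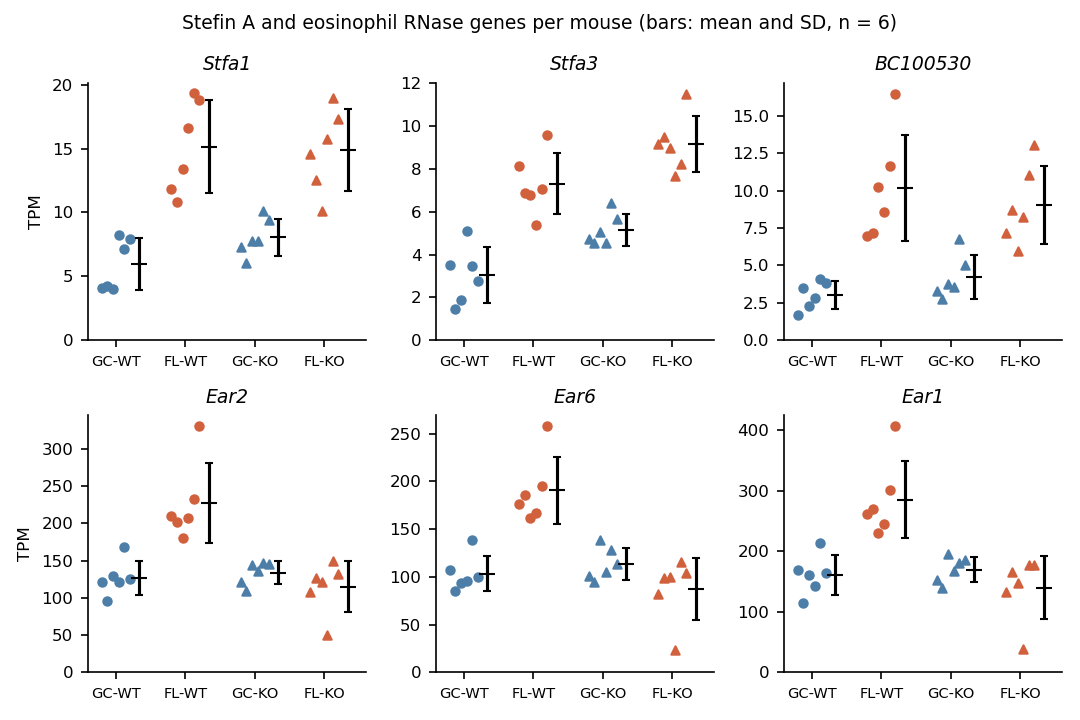
TPM of 3 stefin A genes and 3 eosinophil ribonuclease genes in each of the 24 mice, from 0, with ground mice in blue, flown mice in red, circles for WT and triangles for Nrf2-KO and bars for the mean and SD of 6 mice. The FL-WT mice lie above all GC-WT mice in every panel, while FL-KO and GC-KO mice are apart for Stfa3 but overlap for Stfa1, BC100530 and the 3 Ear genes.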

How the data were processed

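RNA-seq values of 12 WT and 12 Nrf2-KO mice were used, grouped by their labels. Strand-specific libraries (MGIEasy RNA Directional Library Prep Set) of frozen marrow cells were read on the DNBSEQ-G400. The deposited values are TPM, which the authors obtained with STAR 2.6.1 (alignment to mm10, that is GRCm38) and RSEM 1.3.1, according to the submitters' processing notes. They sum to the same total in each library, so a TPM is a share that also depends on abundant small RNAs, and counting error cannot be given without read counts.

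Of 54752 genes, 26504 were at 0 throughout, and the 12373 that exceeded 1 TPM in any library were analysed on the scale of log2(TPM + 1), which understates changes of low genes. The model was fitted by limma 3.58.1 (R 4.3.3) to the 24 libraries with 4 group means, which share an estimate of the spread. Calls needed an adjusted p (Benjamini-Hochberg) below 0.1 together with a 2-fold difference. Errors are SE. The code was run on simulated data with independent noise and no shift between libraries. Of 200 genes above low levels that were given a change larger than the threshold, 199 were called, along with 2 unchanged ones. This cannot tell how many of the calls in the real libraries are false or missed, because those libraries carry a common shift. Gene lists and their summed shares of TPM are described by counts, medians and ranges. An exact permutation test of the shares had been planned, but its p-values are not given, because the lists were chosen with results known. Members and lists were chosen with earlier results of these data known. By rule, names were drawn from every gene called higher, the 15 largest decreases (mean over WT mice not under 5 TPM, groups apart), up to 4 called members per list or else the 2 with the smallest adjusted p, genes the study names, and defining markers. Other genes were named after their values were seen. Of the tested genes, 472 had no symbol here and are not named, and some list members are not reported here. Positions and transcript lengths follow GENCODE M21 (GRCm38), and upstream windows RefSeq (GRCm38.p6). Scripts ran in Python 3.11.15 with scipy 1.17.1, numpy 2.4.6, matplotlib 3.10.9 and pandas 2.3.3.

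Alternatives were a pseudocount of 0.1, a filter that needs 6 libraries, no filter, scaling by median of ratios, by quantiles or by the library median, a mean-expression trend, a fit of the WT mice alone, the mouse number as a block, removal of 5 small RNAs, removal of GC and length trends, a stricter adjusted p of 0.05, no minimum fold, and each WT library left out.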

Additional observations from a re-analysis of the deposited data

Results flagged for a closer look

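Within groups of 6 mice, 13 of 116 list levels had a mouse whose gap to its nearest neighbour, divided by the group's range, exceeded Dixon's 95% critical value, where chance gives about 1 in 20. The list levels come from the same mice and are not independent, so the count of 13 cannot be judged against that rate. All are mean log2 levels relative to the GC-WT mean. GC-WT 10 accounted for 8 of the 13: p53 targets at 0.13 (others -0.05 to -0.01), homing and integrin genes at -0.23 (0.01 to 0.08), nuclear oxidative phosphorylation genes at 0.35 (-0.12 to 0.01), SWI/SNF subunits at -0.31 (-0.01 to 0.11), proteasome subunits at 0.34 (-0.12 to 0.00), Ighg genes at -1.12 (0.01 to 0.63), and Rpl and Rps genes at 0.55 (-0.18 to -0.05) and 0.59 (-0.19 to -0.04). GC-WT 05 was low for globins at -0.84 (-0.01 to 0.48) and for reticulocyte maturation at -0.45 (0.02 to 0.16). GC-WT 06 was low for NADPH oxidase subunits at -0.16 (0.01 to 0.04). Among flown mice, FL-WT 03 was high for mature neutrophil genes at 0.79 (0.42 to 0.53) and FL-WT 06 for clustered histone genes at 0.55 (-0.20 to 0.08).

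The flight effect differed between genotypes for 2 genes. For Gm26917 the WT log2 fold change exceeded the Nrf2-KO one by 1.46 ± 0.25 (limma interaction, adjusted p = 0.0475), and for Hist1h2ap by 1.08 ± 0.20 (adjusted p = 0.0746).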

How the results depend on the processing

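The counts of 116 lower and 8 higher calls rested on the scaling and on the fold threshold. Lower calls numbered 494 with a pseudocount of 0.1, 15 with median-of-ratios scaling, 32 with quantile normalization, 18 with library-median centring, 230 without the 5 small RNAs, 24 with the GC and length trend removed and 4821 with no minimum fold. Removing the GC and length trend also took out each library's overall shift. The parts of the shift and of the trend in the count of 24 were not tested apart. Higher calls numbered 16, 22, 18 and 123 with the pseudocount of 0.1, median-of-ratios scaling, centring and no minimum fold. The median of all genes was -0.0455 with no filter, 0.0254 with median-of-ratios scaling, 0.0121 with quantile normalization, 0.0549 with centring and 0.0258 with the GC and length trend removed. The scalings and the removal of the trend set it near 0 by construction, and the absence of a filter changes the genes it is taken over. The 2 genes that differed between genotypes became 0 with the pseudocount of 0.1, with no filter and without the small RNAs, 31 with median-of-ratios scaling, 18 with quantile normalization, 13 with centring and 46 with the trend removed. The cause of the other moves was not tested. Without the filter, 30 of 59 relative list medians moved by more than the spread between mice.

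Leaving out 1 WT library gave 77 (without FL-WT 05) to 193 lower calls (without FL-WT 07), and 0 to 7 genes that differed between genotypes. The share of mitochondrially encoded genes differed by 0.129 to 0.375 percentage points and that of S100a8 and S100a9 by 1.23 to 1.70. Mouse numbers did not pair the samples: deviations of same-numbered mice correlated between -0.03 and 0.26, and 1 of 6 mice correlated best with its own number. With the number as a replicate block, 118 genes were lower, 10 higher and 22 differed between genotypes. Depth is unknown, so the counting error of low values cannot be given.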
